A study of Homo sapiens with 8 samples.

Results

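The cytosolic ribosomal protein genes encode the protein subunits of the cytoplasmic ribosome, RPL and RPLP proteins in the large (60S) subunit and RPS proteins and RPSA in the small (40S) subunit. They were taken by symbol: RPL or RPS followed by digits and an optional A or X, or RPLP0, RPLP1, RPLP2 or RPSA. This gave 77 of the 19821 protein-coding genes that lie on the autosomes or X, with 46 for the large and 31 for the small subunit. Symbols alone decide membership, but the set was chosen by its values in the KDM2A list, the number, Pileup and Length of peaks at the gene ends. The KDM2A values below are therefore a description, with no test, and nothing is supported by them.

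The peaks came from chromatin immunoprecipitation sequencing of neural progenitor cells that were induced from the human embryonic stem cell line H9. The stem cells had been infected before differentiation with a control lentivirus (NC) or with 1 of 2 hairpins against KDM2A (sh1, sh4). The multiplicity of infection was 20. Selection was with puromycin at 1 µg/ml, with a first screen of 48 hours. KDM2A was precipitated from NC cells, and dimethylated lysine 36 of histone H3 (H3K36me2) from NC, sh1 and sh4 cells. Every group was 1 library, so replicate error cannot be given and groups were compared without a test. The lists hold no expression values, so neither the cell type nor the knockdown could be checked against marker genes or KDM2A itself.

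KDM2A is a demethylase of H3K36me2 that reaches CpG-rich DNA through a zinc finger of the CXXC type, which recognises unmethylated CpG. H3K36me2 is usually spread over gene bodies and intergenic domains and is sparse at active CpG island promoters. Ribosomal protein genes are short, highly transcribed genes with CpG-rich promoters, and their transcripts commonly begin with a C followed by a run of pyrimidines (the TOP motif), through which mTOR signalling controls their translation.

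The KDM2A list held 504724 peaks, of which 3.13% had a deposited false discovery rate (FDR) under 0.05, and its FDR reached 0.869. Its Pileup, the authors' height of stacked fragments at a peak, had a median of 8 over the list. A height of 8 fragments has a 95% Poisson interval of 3.45 to 15.8, for counting error only. The H3K36me2 lists held 19691 regions in NC, 19501 in sh1 and 21493 in sh4, with median folds of 1.59, 1.65 and 1.65 over background. The read totals of the libraries are unknown.

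Promoter sequences were available for 62 of the 77 genes, from RefSeq (GRCh38.p14), as 250 bases before and 50 after an annotated start. Where a gene had several, the annotated start nearest its outer 5′ end was used. That start need not be the one most used in these cells, which limits all promoter and start values below. The promoter sequences are shown first because CpG is what the KDM2A zinc finger recognises. The bases run from 200 before the start to 20 from it, 5′ to 3′ on the strand of the gene, with every CpG in capitals. RPL15 and RPL41 were the 2 members with a KDM2A peak on the promoter sequence. The other 4, RPS28, RPL13, RPS29 and RPL3, had the most CpG among members with no KDM2A peak within 2 kb of either end. RPS16, also with no peak, equalled RPL3 at 32 CpG in the whole promoter sequence and is not shown.
RPL15: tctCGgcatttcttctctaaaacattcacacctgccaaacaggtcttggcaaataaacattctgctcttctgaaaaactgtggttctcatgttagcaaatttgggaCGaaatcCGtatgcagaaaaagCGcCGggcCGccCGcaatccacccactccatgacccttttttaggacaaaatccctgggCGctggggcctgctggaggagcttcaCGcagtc
RPL41: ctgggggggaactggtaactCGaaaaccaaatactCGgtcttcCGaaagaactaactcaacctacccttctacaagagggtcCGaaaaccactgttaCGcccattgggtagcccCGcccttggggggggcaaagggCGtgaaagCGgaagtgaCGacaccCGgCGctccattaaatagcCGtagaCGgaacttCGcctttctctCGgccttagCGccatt
RPS28: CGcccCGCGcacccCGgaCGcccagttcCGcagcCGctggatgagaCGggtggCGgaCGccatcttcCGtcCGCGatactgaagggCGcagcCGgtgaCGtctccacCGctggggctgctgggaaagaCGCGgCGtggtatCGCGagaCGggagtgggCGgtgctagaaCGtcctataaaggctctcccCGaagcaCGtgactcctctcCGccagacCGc
RPL13: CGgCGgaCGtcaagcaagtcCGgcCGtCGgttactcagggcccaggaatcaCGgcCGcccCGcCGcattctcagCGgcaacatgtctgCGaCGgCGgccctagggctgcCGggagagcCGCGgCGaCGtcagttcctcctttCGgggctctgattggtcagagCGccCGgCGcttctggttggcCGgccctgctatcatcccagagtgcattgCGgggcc
RPS29: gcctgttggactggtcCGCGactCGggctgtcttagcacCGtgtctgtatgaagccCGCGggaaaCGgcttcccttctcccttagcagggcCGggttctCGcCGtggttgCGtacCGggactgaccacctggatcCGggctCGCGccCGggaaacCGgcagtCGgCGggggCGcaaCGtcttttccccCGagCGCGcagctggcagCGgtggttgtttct
RPL3: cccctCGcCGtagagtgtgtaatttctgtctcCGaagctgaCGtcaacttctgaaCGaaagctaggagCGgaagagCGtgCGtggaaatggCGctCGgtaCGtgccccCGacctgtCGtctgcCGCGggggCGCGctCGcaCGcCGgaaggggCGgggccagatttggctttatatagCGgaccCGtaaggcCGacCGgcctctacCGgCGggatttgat
The stretches lie at chr3:23916345-23916564 (RPL15, plus strand), chr12:56116433-56116652 (RPL41, plus), chr19:8321296-8321515 (RPS28, plus), chr16:89560457-89560676 (RPL13, plus), chr14:49598691-49598910 (RPS29, minus) and chr22:39319604-39319823 (RPL3, minus). RPL15 held 9 CpG in the stretch shown and RPL41 held 16. The genes with no peak held 29 (RPS28), 25 (RPL13), 25 (RPS29) and 27 (RPL3), more than either gene with a peak on its promoter, as their choice by CpG fixed for these 4. The peak of RPL15 covered 23916527 to 23916822, across the annotated start. That of RPL41 covered 56116657 to 56116932, inside the gene and just past the bases shown.

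A second feature of the promoters that the rule did not use is the base at which transcription starts. The next lines show 15 bases before and 15 from the annotated start of the stalk genes, RPSA, RPL11 and the X-linked genes, with any pyrimidine run that begins at the start base in capitals.
RPLP0: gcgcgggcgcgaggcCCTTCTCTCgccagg
RPLP1: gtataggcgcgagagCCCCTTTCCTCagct
RPLP2: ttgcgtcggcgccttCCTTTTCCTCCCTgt
RPSA: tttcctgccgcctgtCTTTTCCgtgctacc
RPL36A: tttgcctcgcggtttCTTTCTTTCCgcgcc
RPL39: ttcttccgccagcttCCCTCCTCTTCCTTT
RPL10: tttttccactctcagaaatatacgtctgtc
RPS4X: gcagtctccagccccaatttctacgcgcac
RPL11: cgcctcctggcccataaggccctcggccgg
RPLP0, RPLP1, RPLP2, RPSA, RPL36A and RPL39 started with C and a pyrimidine run of 9, 11, 13, 7, 10 and 19 bases, the last running past the bases shown. The annotated starts of RPL10, RPS4X and RPL11 began with A. Over all 62 members with a promoter, 42 (67.7%) had a C at the start base followed by at least 4 C or T, against 726 of all 15812 promoters (4.59%). The TOP start was found in 33 of 44 members with a KDM2A peak at an end (75.0%) and in 9 of 18 without (50%). Use of an outer start in place of the main one, or a start annotated a few bases away, hides the motif. These are therefore counts of annotated outer starts. The ETS family motif CCGGAAG, searched on both strands, was in 21 of 62 member promoters (33.9%) and in 14.1% of all, and the YY1 motif AAGATGGC in 6 (9.68%) and 3.86%. GGGCGG, the SP1 motif, was in 54.8% of member promoters and 58.3% of all, and TATAAA in 8.06% and 9.75%. The ETS and YY1 letters were therefore more frequent in member promoters than in all promoters, and the SP1 and TATA letters were about as frequent.

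KDM2A peaks were sparser at ribosomal protein genes than at other genes of like length. A KDM2A peak overlapped the 2 kb to either side of a gene end in 52 of the 77 members (67.5%), while 84.0% of all 19821 genes had one. Weighted to the members' lengths over 10 length classes, the share in other genes was 84.4%, which put the members at 0.800 times that share. The members held 93 peaks in 585 kb of merged end windows, or 0.159 per kb, against 0.270 per kb at genes of like length, a ratio of 0.589. A member had on average 1.21 peaks and a gene of like length 2.02. By number of peaks, 25 members had none, 26 had 1, 14 had 2, 9 had 3 and 3 had 4.

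The peaks that were called at members were of ordinary height and width. Their Pileup ran from 6 to 15 with a median of 8, and the median was 8 at genes of like length. Their Length ran from 151 to 618 bp with a median of 218 bp, against 229 bp. Their fold over background ran from 1.66 to 3.75 with a median of 2.29, against 2.33. Of the 93 peaks, 91 had an FDR of 0.05 or more, and the median FDR was 0.437 in both sets. A Pileup of 15, the highest at a member, has a Poisson interval of 8.40 to 24.7, which overlaps the interval of the median peak.

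**Figure D1:**
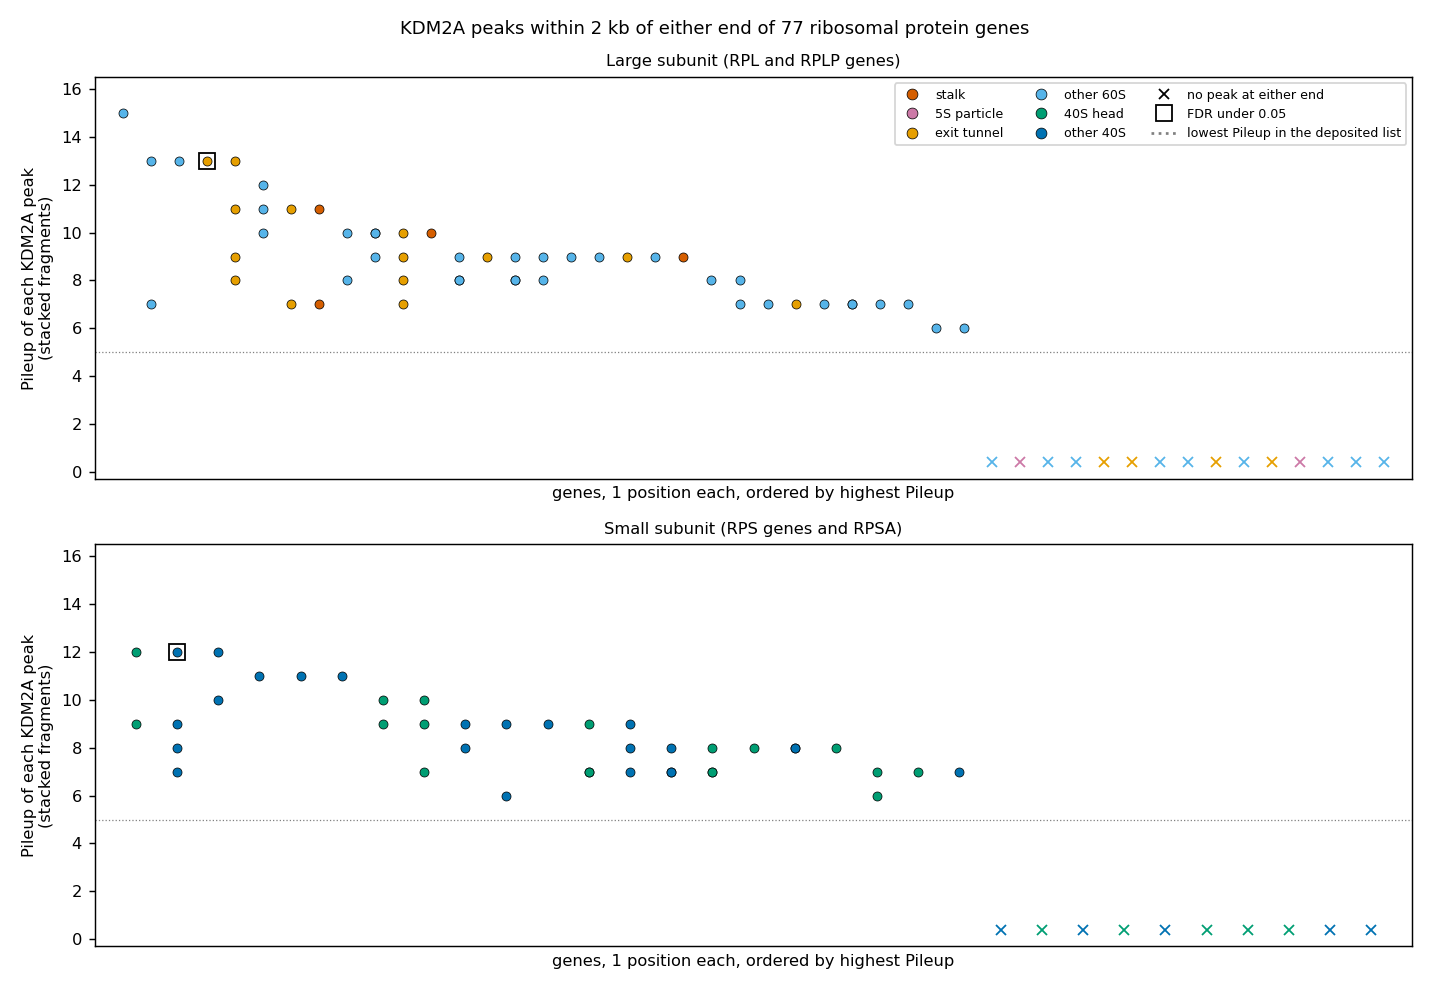
Pileup (stacked fragments) of every KDM2A peak within 2 kb of either end of the 77 genes, 1 position per gene and ordered by highest peak, for the large (top) and small (bottom) subunit. Points are single peaks, coloured by the role of the protein, and peaks of 1 gene with equal Pileup coincide; crosses mark the 25 genes with no peak. Peaks lie between 6 and 15, and the 2 boxed peaks, at RPL31 and RPS9, have an FDR under 0.05.

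Only RPL31 and RPS9 had a peak with an FDR under 0.05, 2 of 77 (2.60%) where 5.55% of all genes and 6.02% of genes of like length had one. RPL31, a protein at the rim of the tunnel through which the nascent chain leaves the large subunit (chromosome 2, 101002289 to 101019724), had 1 peak with a Pileup of 13 at 101002387 to 101002884. Its midpoint lay 346 bp inside the gene from the start, with a Length of 498 bp, a fold of 3.75 and an FDR of 0.0106. RPS9, a protein of the small subunit body (chromosome 19, 54200858 to 54207647), had 4 peaks with Pileups of 12, 9, 8 and 7. The peak of 12 lay at 54205974 to 54206241, in the part of the gene away from the start, with a Length of 268 bp, a fold of 3.38 and an FDR of 0.0442.

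The highest Pileup of all, 15, was at RPL13A, a large subunit protein also known for a role in repressing inflammatory transcripts (chromosome 19, 49487608 to 49492308). That peak was 510 bp long and lay 4177 bp from the start, near the other end, with a fold of only 1.67 and an FDR of 0.659. Height and fold over background thus ranked the members differently. RPL38, RPL21 and RPL27A, all of the large subunit, each had a peak with a Pileup of 13, with folds of 2.63, 2.43 and 2.43. Those of RPL38 and RPL27A lay 189 and 508 bp inside the gene from the start, and that of RPL21 lay 4707 bp from it. RPSA and RPL12 each reached a Pileup of 12, with folds of 2.25 and 1.93 and FDRs of 0.363 and 0.572. RPS2, which lines the mRNA entry of the small subunit, reached 11 with a fold of 3.16 and an FDR of 0.0871, above the limit of 0.05. A Pileup of 11 was also the highest at RPS15A, RPL19, RPLP0 and RPS26. Of the members, 20 had a peak with a Pileup of at least 10 (26.0%), against 30.4% of all genes and 33.5% of genes of like length. A peak among the 10% with the highest fold was found in 4 members (5.19%), RPL31, RPS9 and RPS2 among them, against 16.4% of all genes and 17% of genes of like length.

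By the roles of the proteins, all 3 stalk genes, whose proteins recruit translation factors, had a peak. So did 83.4% of genes of like length and 84.0% of all genes. RPLP0 had 2 with Pileups of 11 and 7, RPLP2 had 1 of 10 and RPLP1 had 1 of 9. Both genes of the 5S particle, which joins the large subunit and can otherwise bind the p53 regulator MDM2, had none. At genes of like length 86.2% had a peak. The 5S genes were RPL5 (chromosome 1, 92831986 to 92841924) and RPL11 (chromosome 1, 23691779 to 23696835). Among the 11 genes for proteins around the exit tunnel, 7 had a peak (63.6%, against 86.0% at like length). RPL38 and RPL35 had 4 peaks each, and RPL4, RPL22, RPL23A and RPL37 had none. RPL19 had 2, and RPL17, RPL26, RPL31 and RPL39 had 1 each. In the other 30 large subunit genes 21 had a peak (70.0%, against 84.7% at like length). RPL3, RPL7, RPL8, RPL9, RPL10A, RPL13, RPL14, RPL27 and RPL37A had none. RPL3 encodes a protein close to the peptidyl transferase centre.

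In the small subunit, 9 of the 14 genes for proteins of the head had a peak (64.3%, against 82.9% at like length). RPS12, RPS16, RPS25, RPS28 and RPS29 had none. RPS3, which lies at the mRNA entry, had 3 peaks, and so did RPS18. Of the other 17 small subunit genes 12 had a peak (70.6%, against 84.2% at like length). Those with none included RPS6, a target of the S6 kinases, RPS14 and RPS23. Shares were nearly equal for the subunits, at 31 of 46 genes (67.4%) for the large and 21 of 31 (67.7%) for the small. At like length the shares were 85.0% and 83.6%. Each of the 4 X-linked genes had 1 peak, with Pileups of 9 at RPL39 and RPS4X, 8 at RPL10 and 7 at RPL36A. Of genes like the X-linked members in length, 86.2% had a peak, with 2.19 peaks per gene. The 12 members on chromosome 19, the most on any chromosome, had 21 peaks, or 1.75 per gene, against 1.93 at genes of like length.

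Between the 2 ends of a gene, the members' share lay farther below that of genes of like length at the start than at the other end. Strand was known for the 62 members with a promoter, and the start is here the outer end of the gene on its 5′ side. Starts farther inside a gene were not used. Within 2 kb of the start 27 of 62 members (43.5%) had a peak, against 66.1% of all 15812 genes with a known start and 67.5% of those of like length, a ratio of 0.645. Within 2 kb of the other end the count was 35 of 62 (56.5%), against 58.9% of all and 64.6% at like length, a ratio of 0.874. In short genes these windows overlap, so the same peak can count at both ends, as at RPS27 and RPL41. Within 500 bp the start had a peak in 13 of 62 members (21.0%), against 38.8% of all and 38% at like length, a ratio of 0.552. At the other end it was 15 of 62 (24.2%), against 23.4% of all and 28.1% at like length, a ratio of 0.861. The 13 genes with a peak within 500 bp of the start were RPL12, RPL15, RPL18, RPL27A, RPL31, RPL38, RPL41, RPLP1, RPS4X, RPS9, RPS18, RPS21 and RPS27.

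On the 300-base promoter sequence itself the share was lower still. Only RPL15 and RPL41, 2 of 62 members (3.23%), had a peak that overlapped it, against 21.3% of all genes and 20.5% at like length, a ratio of 0.157. This comparison was added after the values had been seen. Both peaks had a Pileup of 7, with folds of 2.25 at RPL15 and 1.66 at RPL41 and FDRs of 0.520 and 0.839. No member had a promoter peak with a Pileup of at least 10, where 4.93% of genes of like length did, or one with an FDR under 0.05, where 0.756% did.

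Along the gene, both members and other genes had more peaks in the first kb inside the start than in the bins beside it, at a lower level in members. In the first kb inside the start, members held 13 peak midpoints, 0.210 per kb and gene, against 0.353 at genes of like length. In the kb before the start they held 8 (0.129) against 0.256. The bins follow distance alone, so in members shorter than 3 kb those at 2 to 3 kb can reach past the opposite end. From 2 to 3 kb past the start members held 2 peaks (0.0323) against 0.237. The peak of RPL29 among them lay 314 bp outside the gene. From 2 to 3 kb before the other end members held 3 peaks (0.0484) against 0.258. These were the lowest 2 member bins, and in genes near the median length of 5011 bp they cover much the same DNA. From 3 to 4 kb past the start the values were 0.129 and 0.243, and from 4 to 3 kb before it 0.0968 and 0.226. In the last kb before the other end the values were 0.258 for members (16 peaks) and 0.270 for the others. Member bins hold 2 to 16 peaks each. Outside the genes the difference was smaller: from 2 to 10 kb beyond either end members held 0.199 peaks per kb against 0.224, a ratio of 0.889. From 10 to 50 kb the values were 0.221 and 0.219, a ratio of 1.01.

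**Figure D2:**
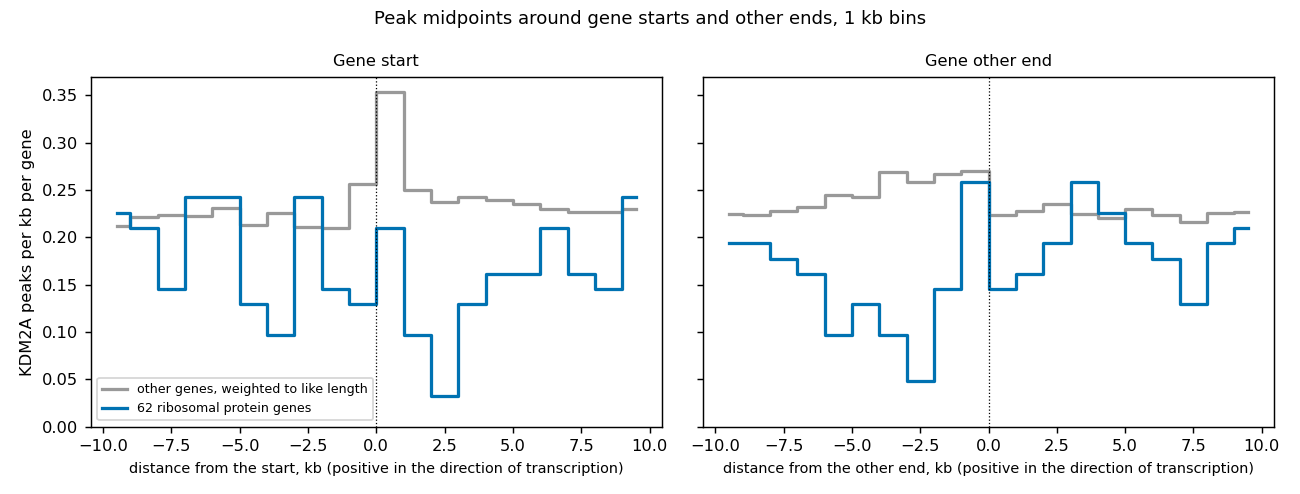
KDM2A peak midpoints per kb and gene in 1 kb bins, by distance in kb from the gene start (left) and the other end (right), positive in the direction of transcription. The 62 ribosomal protein genes (blue) lie at 0.210 in the first kb inside the start and at 0.0323 from 2 to 3 kb; other genes weighted to like length (grey) rise to 0.353 at the start.

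Members without a peak at either end did not have fewer CpG in the promoter than members with one. Member promoters held 2 to 38 CpG in 300 bases with a median of 23, against 22 in other genes, and a median GC of 59.0% against 62.7%. The 44 members with a peak at an end had a median of 22.5 CpG and the 18 without had 26.5. That peak need not be near the promoter, as only 27 of the 62 members had a peak within 2 kb of the start. Among other genes the share with a peak within 500 bp of the start was 30.3% in the fifth of genes with the fewest CpG and 45.0% in the fifth with the most. With 6 to 17 CpG, 4 of 13 members had such a peak (30.8%), close to the 34.9% of other genes. In the middle class of 17 to 26 CpG, 4 of 21 members had such a peak (19%), against 41.1% of other genes. In the next class, of 26 to 34 CpG, it was 4 of 20 (20.0%), against 43.0%. The classes with the fewest and the most CpG held 2 and 6 members, of which 0 and 1 had such a peak. With classes of both length and CpG, the ratio of members to other genes was 0.526 within 500 bp of the start and 0.142 on the promoter sequence.

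Ribosomal protein genes have many processed pseudogenes, copies of their spliced transcripts, and reads of the exons can match a copy as well as the gene. How such reads were treated is not given in the sources used here, so peaks over exons of these genes are uncertain. The annotation holds 4 to 137 pseudogenes per member by symbol, most for RPL21, with a median of 17. Members with a peak had a median of 20 and members without had 12, with many copies also among the latter, such as 95 for RPL23A and 61 for RPL7. The 1962 pseudogenes themselves had a peak within 2 kb of an end in 62.2% of cases, against 63.3% of 13117 other pseudogenes, with no matching for length. A peak lay on the copy itself in 22.9% against 28.5%, but the other pseudogenes were longer, with a median of 687 bp against 536 bp. The part of shared reads in the values above was not tested. Of the members, 29 (37.7%) hold an annotated snoRNA within the gene, against 0.661% of genes of like length. The share was 20 of 52 among members with a peak (38.5%) and 9 of 25 among those without (36%). Another protein-coding gene had a start or end within the same windows for 26 of 52 members with a peak (50%) and 10 of 25 without (40%). Over all members it was 36 of 77 (46.8%), near the 41.8% of genes of like length.

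Other genes of translation lay closer to the general share. Among mitochondrial ribosomal protein genes 58 of 77 had a peak at an end (75.3%, against 84.3% at like length). The counts were 54 of 68 translation initiation and elongation factor genes (79.4% against 84.7%) and 27 of 32 ribosome biogenesis genes (84.4% against 84.6%). Within 500 bp of the start the ratios to genes of like length were 0.764, 0.779 and 0.600 for these lists, against 0.552 for the cytosolic genes. On the promoter sequence they were 0.985 (14 of 69 genes), 0.972 (11 of 54) and 0.365 (2 of 27), against 0.157. The biogenesis genes, which build the ribosome in the nucleolus, were thus nearest to the cytosolic genes at the promoter, on 2 genes with a peak. These differences between lists were not tested.

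Near relatives of the members had more peaks on their promoters. Paralogues named with an L suffix, several of them restricted to certain tissues, had a peak at an end in 7 of 8 (87.5%, against 83.8% at like length). On the promoter sequence 5 of 6 with a known start had a peak (83.3%, against 20.3% at like length). The 5 were RPL22L1, RPL26L1, RPL7L1, RPL10L and RPS27L. At its highest peak at an end, RPL26L1 had a Pileup of 14, a fold of 3.97 and an FDR of 0.00344, and RPL7L1 had 11, 3.42 and 0.0497. The FDR of the highest peak was 0.102 at RPS27L, 0.437 at RPL10L and 0.458 at RPL22L1. RPL26L1 and RPL10L had 1 peak each. RPL7L1 had 3 and RPS27L and RPL22L1 had 2 each, so there the highest peak need not be that on the promoter. RPL36AL had 3 peaks at its ends and none on its promoter. Of ribosome genes outside the rule, RACK1 had 1 peak and FAU had none.

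**Figure D3:**
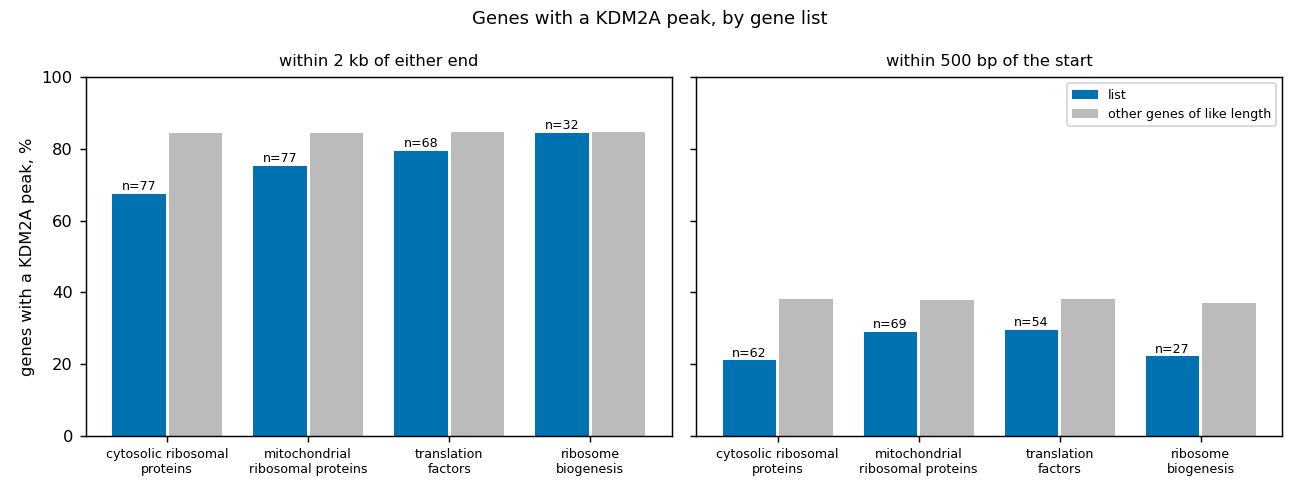
Percent of genes with a KDM2A peak within 2 kb of either end (left) and within 500 bp of the start (right) for 4 gene lists (blue, n genes above each bar) and other genes weighted to the same lengths (grey). Cytosolic ribosomal protein genes lie at 67.5% and 21.0%, the lowest list in both panels.

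H3K36me2 regions were all but absent from the genes themselves in each library. Within 2 kb of the gene body, NC had a region at 0 of 77 members, where 21.3% of all genes and 3.54% of genes of like length had one. In sh1 it was 1 of 77 (1.30%), against 16.9% of all and 2.04% at like length, and in sh4 0 of 77, against 16.1% and 1.81%. The members are short, and at these shares 0 or 1 gene of 77 lies close to the share of short genes as a whole. A gene with no called region is one where no region passed the authors' caller, not one shown to lack the mark.

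The member with a region was RPS29, a small protein of the 40S head whose annotated gene is the longest of the set (chromosome 14, 49570988 to 49598710). In sh1 a region of 3600 bp at 49573201 to 49576800, with a fold of 1.77, covered 11.3% of the gene and its flanks, at the end away from the start. In NC and sh4 0% was covered, and the nearest regions lay 79988 and 65788 bp away. RPS29 had no KDM2A peak at either end.

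Within 10 kb the count was 1 member in NC (25.5% of all genes, 7.67% at like length), 4 in sh1 (19.8% and 4.61%) and 1 in sh4 (18.7% and 4.45%). In NC it was RPL10A, the protein of the L1 stalk of the large subunit, with a region of fold 1.58 at 7021 bp, while the nearest in sh1 and sh4 lay 573801 and 141221 bp away. In sh1 they were RPS29, RPL24 at 5483 bp (fold 1.39), RPL34 at 7517 bp (fold 2.00) and RPL37A at 7915 bp (fold 2.04). The nearest NC regions to RPL24, RPL34 and RPL37A lay 122291, 92576 and 63315 bp away, and the nearest sh4 regions 199491, 34976 and 50844 bp away. In sh4 it was RPL7 at 7535 bp (fold 1.61), with 18042 bp in NC and 21135 bp in sh1.

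At the larger distance of 50 kb the shares of members and of genes of like length were near each other. Within 50 kb a region lay near 17 members in NC (22.1%, against 24.6% at like length and 41.7% of all genes), 13 in sh1 (16.9%, against 15.2% and 31.0%) and 8 in sh4 (10.4%, against 13.6% and 28.7%). The median distance from a member to the nearest region was 144581 bp in NC, 445622 bp in sh1 and 305985 bp in sh4. At genes of like length it was 171386, 390860 and 419432 bp, larger than at members in NC and sh4 and smaller in sh1. Both medians were larger in sh1 and in sh4 than in NC. Both hairpins are compared with the same control library. Among the genes of the 5S particle, RPL5 had regions at 15277, 73586 and 18386 bp in NC, sh1 and sh4, and RPL11 at 177979, 609566 and 824766 bp. RPLP0 had them at 14090, 469099 and 652490 bp.

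**Figure D4:**
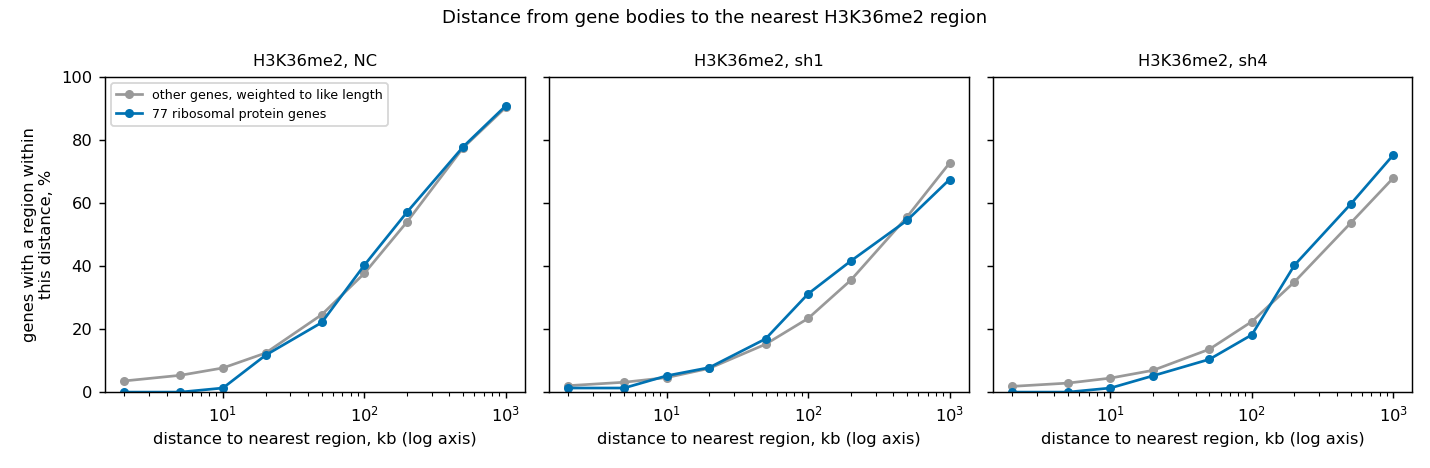
Percent of genes with an H3K36me2 region within a given distance of the gene body (kb, log axis) in NC, sh1 and sh4, for the 77 ribosomal protein genes (blue) and other genes weighted to like length (grey). In NC the blue points start at 0% at 2 kb, reach 1.30% at 10 kb and meet the grey points from 20 kb on.

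In the other genes of translation, regions within 2 kb of the body were counted in the same way. Mitochondrial ribosomal protein genes had a region at 4, 5 and 4 of 77 in NC, sh1 and sh4. The counts were 7, 4 and 2 of 68 translation factor genes, and 3, 2 and 1 of 32 biogenesis genes. Over all genes the shares were 21.3%, 16.9% and 16.1%. These lists hold longer genes, with medians of 8618, 20486 and 15991 bp against 5011 bp in members, and their shares at like length are not given. The pseudogenes of ribosomal protein genes, which lie scattered over the genome, had a region within 2 kb in 6.42% of cases in NC, 6.17% in sh1 and 5.86% in sh4. Other pseudogenes had one in 5.86%, 5.20% and 5.60%.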

How the data were processed

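Peak lists of 4 ChIP-seq libraries were used, 1 per group; the 4 input libraries were not analysed here. Per the submitters' processing notes, which give no roles, SICER, MACS2 and Bowtie 1.1.2 were used with build hg38 (GRCh38). Per the file headers, each deposited list gives per region a fold enrichment (a linear ratio), a p-value and an FDR. The deposited KDM2A list adds the Pileup, a signal height, and the deposited H3K36me2 lists a score, which was not used.

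Gene positions came from RefSeq GRCh38.p14; genes on Y and 177 protein-coding entries on alternate or unplaced sequences were left out. A peak counted with 1 bp of overlap. The value in genes of like length is that of non-members in each of 10 length classes, weighted by the members in the class. CpG classes numbered 5. Overlap code was tested on simulated data. Python 3.11.15, pandas 2.3.3, numpy 2.4.6, scipy 1.17.1 and matplotlib 3.10.9 were used. Named genes were the 10 members with the highest Pileup, those with an FDR under 0.05, with no peak, with H3K36me2 within 2 kb, and the stalk, 5S and X-linked genes; others were named after their values were seen, and some genes that the rule names are not reported here. Members, lists and comparisons were chosen with earlier results of these data known. Alternatives varied windows, peak limits, overlap and classes.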

Additional observations from a re-analysis of the deposited data

How the results depend on the processing

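The share of members with a KDM2A peak stayed below that of genes of like length under each alternative run. These alternatives count again the same KDM2A list by which the set was chosen, so they describe it and give no support. The number of members with a peak and its ratio to like length were 2 and 0.432 for peaks with an FDR under 0.05, and 4 and 0.306 for the 10% of peaks with the highest fold. With a Pileup of at least 10, 20 members had a peak. With the start alone the values were 27 of 62 members and 0.645, or 0.638 with promoter CpG classes added (chosen after seeing the data). With windows of 5 kb 70 of 77 members had a peak and the ratio was 0.950. The ratio of peaks per kb was 0.396 with the FDR limit, 0.269 with the fold limit and 0.754 with the Pileup limit. Under these limits the median Pileup of member peaks was 12.5, 12 and 11, and the median Length 383 bp with the FDR limit and 339 bp with the fold limit, on few peaks and partly set by the limits themselves. H3K36me2 within 10 kb was found at 1, 4 and 1 members in NC, sh1 and sh4. No paired analysis was possible because each group has 1 library. The KDM2A depth is unknown and its peaks rest on few fragments, so a missing peak does not show missing binding.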
